A study of Mus musculus with 9 samples.

Results

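miR-193a-3p, miR-193b-3p and miR-365-3p are the main products of a pair of small miRNA clusters, and their levels were described here in the washed fat layer of mouse milk. They were taken by name (mmu-miR-193a-3p, mmu-miR-193b-3p and mmu-miR-365-3p, with the mouse prefix left out from here on) from the deposited count table, in which they were 3 of 1915 mature miRNA names and filled 4 of 2059 rows. Small RNA was sequenced from the milk of 9 primiparous ICR (CD1) females, an outbred stock, at lactation day 10. The 4 high-fat dams ate a diet with 60% of its energy as fat (5.24 kcal per g) and the 5 control dams a diet with 10% of its energy as fat (3.85 kcal per g). Both diets held 7% of their energy as sucrose. Diets began at 4 weeks of age, 4 weeks before mating, and went on through pregnancy and lactation. Each library came from a different dam, and before mating females shared a cage with another of their diet, so that cage mates may not be fully independent; the cages are not given. Milk fat holds RNA shed with fat globules by the secretory epithelium, so that in such a bulk sample fewer cells of a type and less RNA per cell cannot be told apart.

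A miRNA is cut from a hairpin precursor with a 5p and a 3p arm, and it represses mRNAs that pair with its seed, bases 2 to 8. miR-193b and miR-365 were reported to promote the differentiation of mouse brown fat cells in culture, whereas a mouse lacking both miR-193b and miR-365-1 was reported to form brown fat normally. In the mouse mammary gland, loss of miR-193b was reported to speed epithelial development, and its promoter to be bound by STAT5, the transcription factor of prolactin signalling. miR-193a shares the seed of miR-193b and is best known as a tumour suppressor. The question for these milk samples was whether the levels of the members, or the balance of miR-193a-3p against miR-193b-3p and miR-365-3p, differed with the diet of the dam.

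The 3p sequences are shown because they set what was counted, with the seed in capitals (RefSeq, GRCm38.p6, 5′ to 3′).
miR-193a-3p: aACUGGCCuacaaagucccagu
miR-193b-3p: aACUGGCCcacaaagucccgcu
miR-365-3p: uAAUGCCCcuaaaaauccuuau
miR-193a-3p and miR-193b-3p have the same seed and were the only 2 of 1679 mouse mature names in the RefSeq table with it. They differ at 3 of 22 positions, counted from 1 at the 5′ end with the base of miR-193a-3p first, U9C, A20G and G21C. Reads of one could be credited to the other if mismatches were allowed in counting, a rule not given in the sources used here. No other name in the RefSeq table has the seed of miR-365-3p.

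Each cluster pairs a miR-193 hairpin with a miR-365 hairpin on the plus strand (GRCm38). On chromosome 11, Mir193a lies at chr11:79711969-79712034 and Mir365-2 at chr11:79726400-79726511, 14365 bases apart, and neither overlaps another GENCODE gene. On chromosome 16, Mir193b lies at chr16:13449523-13449601 and Mir365-1 at chr16:13453840-13453926, 4238 bases apart, and both fall in an intron of Gm15738, a non-coding gene of the opposite strand. Both miR-365 hairpins give the same miR-365-3p, and the 2 rows of that name held equal counts in every library, so its reads cannot be assigned to a cluster. The 5p arms do differ, and the hairpins are shown for that reason, with both mature arms in capitals.
mir-365-1: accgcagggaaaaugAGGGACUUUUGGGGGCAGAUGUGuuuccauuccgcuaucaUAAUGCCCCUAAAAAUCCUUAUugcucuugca
mir-365-2: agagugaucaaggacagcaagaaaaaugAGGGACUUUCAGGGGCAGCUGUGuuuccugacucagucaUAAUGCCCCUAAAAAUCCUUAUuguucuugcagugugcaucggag
The 5p arms share the seed and differ at 3 of 23 positions, U10C, G11A and A19C, with the base of miR-365-1-5p first and counted from 1 at its 5′ end.

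Total mature miRNA counts ran from 1905838 to 3897109 in high-fat libraries and from 837817 to 2750482 in control libraries. Among the 312 names that passed the filter on low counts, which included all 3 members, miR-365-3p ranked 73, miR-193b-3p 83 and miR-193a-3p 191 by mean CPM (counts per 1000000 of the scaled library size). Together the members made up 0.123% ± 0.0294 of high-fat counts (SD, n = 4) and 0.116% ± 0.00524 of control counts (SD, n = 5). The 8 miRNAs of a secretory epithelium list, all detected, summed to between 48.8% and 51.8% of high-fat libraries and between 46.1% and 51.8% of control libraries. Libraries carried other cells' miRNAs unevenly. The 8 leukocyte miRNAs, all detected, summed to 11361 CPM in high-fat library 1 and 3631 CPM in high-fat library 3, against 326 CPM in high-fat library 2, 628 CPM in high-fat library 4 and 653 to 1066 CPM in controls. The milk fat had been washed and spun to remove trapped cells.

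miR-193a-3p, the least abundant member, had 37.0, 40.9, 26.8 and 67.3 CPM in high-fat libraries 1 to 4, against 32.2, 38.4, 19.2, 24.2 and 39.2 CPM in control libraries 1 to 5. High-fat libraries 2 and 4 lay above every control and the groups overlapped. Its counts were low, 53 to 155 in high-fat and 33 to 56 in control libraries. The mean was 43.0 ± 17.2 CPM in high-fat milk (SD, n = 4) and 30.7 ± 8.78 CPM in control milk (SD, n = 5). The log2 fold change, high-fat over control, was 0.52 ± 0.32 (SE), with a 95% interval of -0.19 to 1.23 and a limma-voom adjusted p of 0.650. A fold change at least as large in size was measured for 25% of the tested names. The value was 0.29 without high-fat library 4, 0.32 without control library 3 and 0.83 without high-fat libraries 1 and 3, with limma-voom adjusted p of 0.780, 0.831 and 0.324.

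miR-193b-3p, studied in the mammary gland, had 389.7, 576.8, 323.9 and 511.6 CPM in high-fat libraries 1 to 4. Control libraries 1 to 5 had 509.9, 537.0, 491.7, 580.4 and 633.3 CPM. High-fat libraries 1 and 3, the same libraries that were high in leukocyte miRNAs, lay below every control, while libraries 2 and 4 lay among the controls. Whether the leukocyte RNA took part in this was not tested. Means were 450.5 ± 114.6 CPM in high-fat milk (SD, n = 4) and 550.5 ± 57.1 CPM in control milk (SD, n = 5). The log2 fold change was -0.31 ± 0.19 (SE), with a 95% interval of -0.72 to 0.10 and a limma-voom adjusted p of 0.650. Without high-fat libraries 1 and 3 it was -0.0021, with a limma-voom adjusted p of 0.998. A smaller decrease follows from leaving out the 2 libraries that lay below every control, so this value is no test of leukocyte RNA.

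miR-365-3p, which both clusters make, had 421.6, 783.7, 1260 and 519.8 CPM in high-fat libraries 1 to 4. In control libraries 1 to 5 it had 506.5, 561.5, 678.3, 608.5 and 516.9 CPM. High-fat library 3 held the highest level and high-fat library 1 the lowest of all 9 libraries, so the high-fat group spanned the controls on both sides. The mean was 746.2 ± 375.0 CPM in high-fat milk (SD, n = 4) and 574.3 ± 70.8 CPM in control milk (SD, n = 5). The log2 fold change was 0.25 ± 0.29 (SE), with a 95% interval of -0.38 to 0.88 and a limma-voom adjusted p of 0.736. Library 3 decided its direction, since without it the log2 fold change was -0.039.

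**Figure D1:**
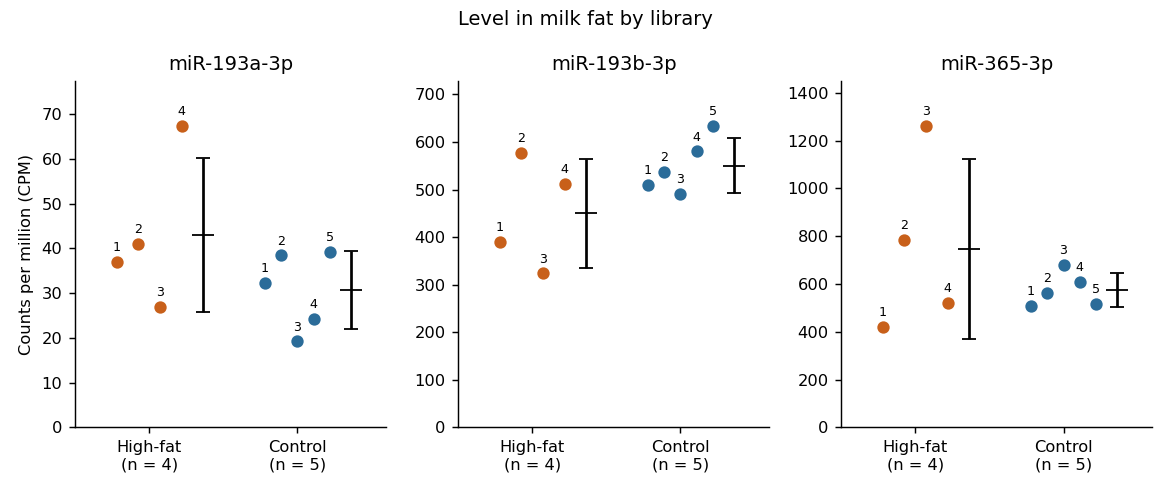
CPM of each member by library (points, numbered by library), with the mean and SD of each diet beside them (high-fat n = 4, control n = 5). Control libraries lay close together for miR-193b-3p and miR-365-3p, at 491.7 to 633.3 and 506.5 to 678.3 CPM, while high-fat libraries ranged from 323.9 to 576.8 and from 421.6 to 1260 CPM.

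None of the 3 members passed a limma-voom adjusted p of 0.05, and neither did any of the 312 tested names (0%). At an unadjusted p under 0.05 the limma-voom count was 0 of 3 members, against 10.3% of the tested names (32). Fits with no count filter, a quality weight per library, limma-trend, the replicate block or no control library 5 called 2 to 4 names, none of them a member, and the others tried called 0. The 4 high-fat libraries lay on one side of all 5 controls for 0 of 3 members and for 4.81% of tested names. A fold change above 0 was measured for 2 of 3 members and for 50.6% of tested names. The intervals still allow a change of either sign for each member.

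**Figure D2:**
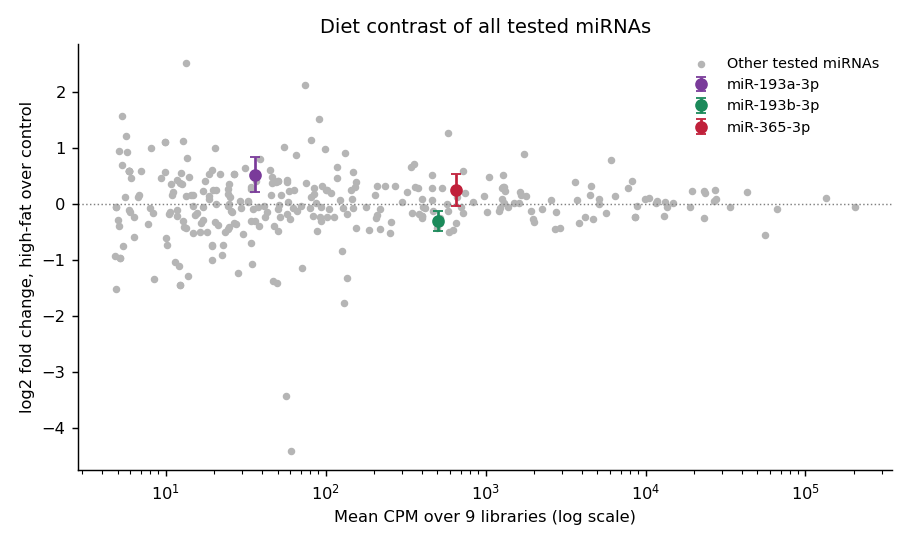
The log2 fold change (high-fat over control) of each of the 312 tested miRNAs against its mean CPM over 9 libraries, on a log axis. The members are coloured with their SE, and all 3 sit within the cloud of other miRNAs, at 0.52, -0.31 and 0.25.

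The members differed in how much they varied among libraries. In control milk the SD of log2 CPM was 0.15 for miR-193b-3p and 0.17 for miR-365-3p, where 285 and 270 of the 312 tested names had a larger one. In high-fat milk it was 0.38 for miR-193b-3p and 0.70 for miR-365-3p, with 177 and 88 names above them. For miR-193a-3p the SD was 0.54 in high-fat and 0.44 in control milk. The median over all tested names was 0.41 in high-fat and 0.39 in control milk. Counting error is part of each SD and is larger at low counts, such as the 33 to 56 of miR-193a-3p in control libraries. Names were ranked without regard to their level. Differences in spread between diets were not tested.

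Ratios between members within a library do not depend on how libraries are scaled. Ligation during library preparation favours some sequences over others, so a ratio of counts need not equal a ratio of molecules. In each of the 9 libraries, miR-193a-3p was counted less often than both other members. miR-193b-3p was counted 14.5 times as often as miR-193a-3p, from a mean log2 ratio of miR-193a-3p to miR-193b-3p of -3.85 ± 0.54 (SD, n = 9; exact two-sided sign-flip permutation, adjusted p = 0.00586 over 3 ratios). For miR-365-3p against miR-193a-3p the figure was 18.0 times, from a log2 ratio of miR-193a-3p to miR-365-3p of -4.17 ± 0.82 (n = 9, exact adjusted p = 0.00586). The unadjusted p of both, 0.00391, is the smallest that 9 libraries can give. miR-193b-3p and miR-365-3p were closer, with a log2 ratio of -0.31 ± 0.66 and miR-193b-3p the lower in 7 of 9 libraries (n = 9, exact adjusted p = 0.133). The order of these members was thus not settled by the test.

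The ratio of miR-193a-3p to miR-193b-3p, the members that share a seed, was compared between diets. miR-193a-3p counts were 9.50%, 7.09%, 8.28% and 13.1% of miR-193b-3p counts in high-fat libraries 1 to 4, against 6.32%, 7.15%, 3.91%, 4.18% and 6.19% in control libraries 1 to 5. High-fat libraries 1, 3 and 4 lay above every control, and library 2 just below control library 2. The log2 ratio was -3.43 ± 0.38 in high-fat milk (SD, n = 4) and -4.20 ± 0.39 in control milk (SD, n = 5), a difference of 0.77, or 1.71-fold. The exact two-sided permutation p was 0.0317 unadjusted and 0.0952 adjusted over the 3 ratios, so the difference did not pass the threshold. A 95% interval from the same permutation test, not adjusted for the 3 ratios, ran from 0.18 to 1.45. With groups of 4 and 5 no p below 0.0159 can be reached. The difference was 0.60 to 0.90 when any 1 library was left out, with exact adjusted p between 0.0857 and 0.214.

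miR-193a-3p against miR-365-3p gave no separation of the diets. Its log2 ratio was -4.06 ± 1.12 in high-fat milk (SD, n = 4) and -4.26 ± 0.60 in control milk (SD, n = 5), a difference of 0.20 with an exact two-sided permutation adjusted p of 0.746. High-fat libraries held both the lowest ratio, -5.54 in library 3, and the highest, -2.94 in library 4. The 95% interval of the difference, -1.57 to 1.66, was wide, and without high-fat library 4 or without control library 3 the difference was below 0, at -0.18 and -0.02.

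For miR-193b-3p against miR-365-3p, high-fat library 3 stood apart. miR-193b-3p counts were 92.4%, 73.6%, 25.7% and 98.4% of miR-365-3p counts in high-fat libraries 1 to 4, against 101%, 95.6%, 72.5%, 95.4% and 123% in control libraries 1 to 5. All libraries but that one were between 72.5% and 123%. The log2 ratio was -0.63 ± 0.90 in high-fat milk (SD, n = 4) and -0.06 ± 0.27 in control milk (SD, n = 5), a difference of -0.58 with an interval of -1.89 to 0.19 and an exact two-sided permutation adjusted p of 0.310. Without high-fat library 3 the difference was -0.13.

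**Figure D3:**
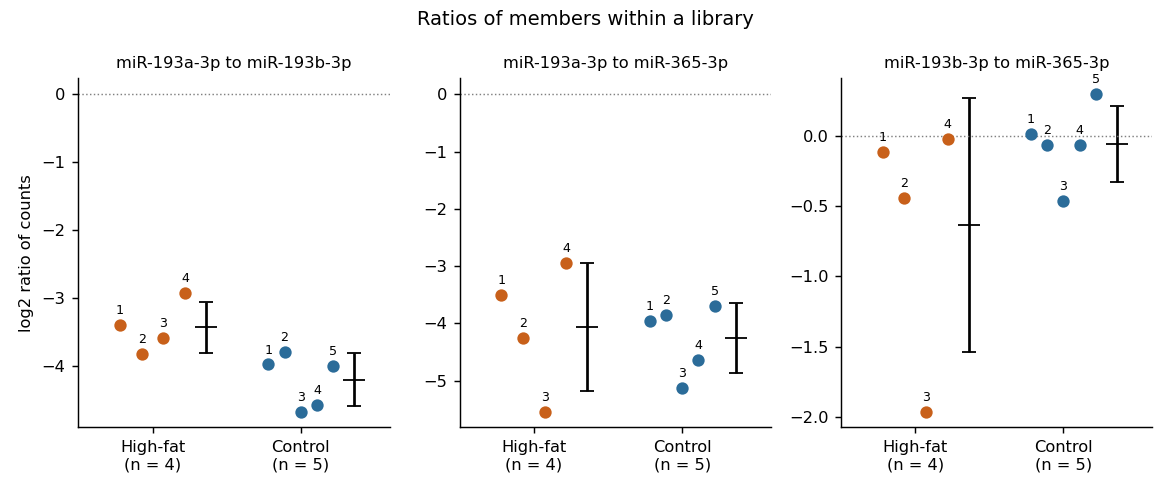
log2 ratio of counts between members in each library (points, numbered by library), with mean and SD of each diet (high-fat n = 4, control n = 5). For miR-193a-3p to miR-193b-3p, 3 of 4 high-fat libraries were above all controls, and for miR-193b-3p to miR-365-3p high-fat library 3 sat at -1.96, below all others.

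High-fat library 3 also had the highest summed red cell and striated muscle miRNAs. The 4 erythrocyte miRNAs, all detected, summed to 666 CPM there, against 18.5 to 100 CPM in high-fat libraries 1, 2 and 4 and 22.6 to 157 CPM in controls. Of the 6 muscle miRNAs 4 were detected, and their sum was 100 CPM in that library, against 2.37 to 5.43 CPM in high-fat libraries 1, 2 and 4 and 4.35 to 13.9 CPM in controls. The muscle sum in that library was mostly miR-133a-3p, with 146 counts, while miR-499-5p was at 0 there. miR-206-3p and miR-208b-3p, markers of skeletal and cardiac muscle, were at 0 in every library. High-fat library 1 had the most leukocyte miRNA but the lowest miR-365-3p. The part of these cells in the miR-365-3p level of library 3 was not tested.

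Members of 1 cluster were compared for shared variation between dams, as correlations of log2 CPM over 9 libraries, with exact two-sided permutation tests over 3 pairs. miR-193b-3p and miR-365-3p, whose hairpins are neighbours on chromosome 16, had a Pearson r of -0.44 (n = 9, exact adjusted p = 0.461) and a Spearman rho of -0.07 (exact adjusted p = 0.880). Leaving out the 2 libraries farthest from the median of miR-193b-3p, high-fat libraries 1 and 3, gave r = 0.03. Without high-fat library 3 alone, a choice made after its level was seen, r was 0.52 over 8 libraries (exact p = 0.163). miR-193a-3p and miR-365-3p, the pair of chromosome 11, had r = -0.38 (n = 9, exact adjusted p = 0.461), rho = -0.25 (exact adjusted p = 0.781) and r = -0.40 without the 2 farthest libraries. miR-193a-3p and miR-193b-3p had r = 0.20 (n = 9, exact adjusted p = 0.590), rho = 0.38 (exact adjusted p = 0.781) and r = 0.33 without the 2 farthest libraries. Without high-fat library 3 this r was 0.02, and that of miR-193a-3p and miR-365-3p was -0.31. No pair passed the threshold, and no correlation was computed within a diet.

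**Figure D4:**
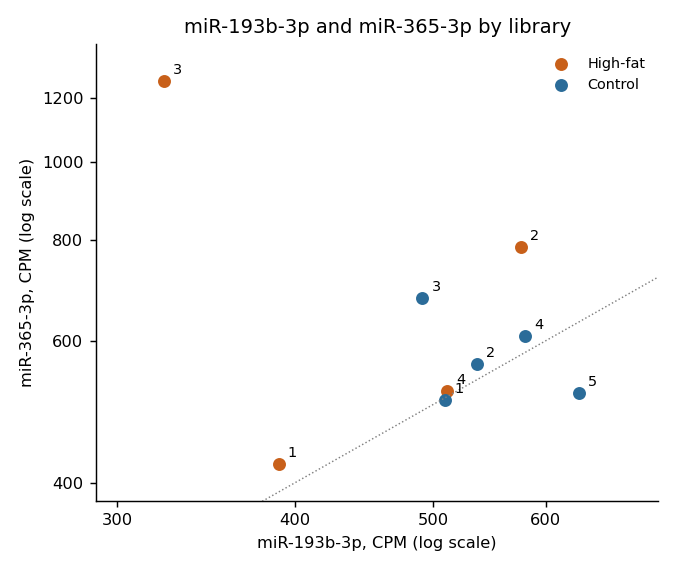
miR-193b-3p against miR-365-3p in each library, in CPM on log axes, with points numbered by library and a dotted line of equal levels. High-fat library 3, at 323.9 and 1260 CPM, lies far from the line, and the other libraries lie near it.

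The 5p arms tell the hairpins of miR-365 apart, and a few 5p reads of each were counted. miR-365-1-5p, from the hairpin beside Mir193b, had 15, 12, 0 and 26 counts in high-fat libraries 1 to 4, against 2, 3, 2, 3 and 0 counts in control libraries 1 to 5. For miR-365-2-5p, from the hairpin beside Mir193a, the counts were 8, 4, 1 and 6 in high-fat libraries, against 0, 2, 1, 0 and 0 in controls. Over all libraries 63 of 85 such reads, or 74.1% (exact 95% interval 63.5% to 83.0%, counting error only), carried the sequence of the chromosome 16 hairpin. The share was 53 of 72 reads in high-fat and 10 of 13 in control libraries, and miR-365-1-5p had more counts than miR-365-2-5p in 7 libraries and fewer in 1. A 5p arm may be kept at different rates for the hairpins, so the share does not measure how much miR-365-3p each one gave.

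Reads of the 5p arms made up a small share of all miR-365 reads. The share was 2.10%, 0.536%, 0.0402% and 3.23% in high-fat libraries 1 to 4, against 0.227%, 0.723%, 0.160%, 0.313% and 0% in control libraries 1 to 5, where 0 of 435 reads allows up to 0.690%. High-fat libraries 1 and 4, the ones with the least miR-365-3p of their diet, lay above all controls. High-fat library 3, with the most, lay below 4 of 5 controls, but its share rests on 1 5p read. That is under its floor of 3 counts, or 0.120%. Its Wilson interval, 0.0071% to 0.227%, overlaps those of control libraries 1, 3 and 4, though not that of control library 2 (0.309% to 1.68%). Reads of miR-365-3p are also part of the share, so these values cannot show whether the share falls as miR-365-3p rises. The 5p names did not pass the count filter. In the limma-voom fit with no filter, which covered 828 names, the log2 fold change was 1.19 ± 1.02 (SE) for miR-365-1-5p and 1.50 ± 0.72 (SE) for miR-365-2-5p, with adjusted p of 0.685 and 0.275. No difference between diets was detected for them.

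Reads of mir-193a and mir-193b were split between the arms in different proportions. Ligation, or 3p reads credited to the other miR-193 name, could alter these shares, and neither was tested. The 5p arms are shown with the seed in capitals, since the paired 3p arms share a seed and these do not.
miR-193a-5p: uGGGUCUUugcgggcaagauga
miR-193b-5p: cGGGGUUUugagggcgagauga
They differ at 5 of 22 positions, and U5G and C6U, with the base of miR-193a-5p first and counted from 1 at its 5′ end, fall in the seed. miR-193a-5p made up 34.7%, 24.0%, 50.5% and 20.0% of mir-193a reads in high-fat libraries 1 to 4, against 27.3%, 40.5%, 46.5%, 30.9% and 40.0% in control libraries 1 to 5. The diets overlapped, with high-fat library 3 the highest and high-fat library 4 the lowest of all. miR-193b-5p made up at most 0.802% of mir-193b reads in any high-fat library and at most 0.455% in control libraries 1 to 4. In control library 5 it had 0 of 533 reads, which allows up to 0.563%. Counts of the 3p arm over those of the 5p arm of mir-193a gave a log2 ratio of 1.13 ± 0.89 in high-fat milk (SD, n = 4) and 0.77 ± 0.48 in control milk (SD, n = 5), a difference of 0.36 (exact two-sided permutation, p = 0.444). Leaving out high-fat library 4 gave 0.072 and leaving out high-fat library 3 gave 0.74, with exact p of 0.857 and 0.107. miR-193a-5p measured 19.2 ± 6.09 CPM in high-fat milk (SD, n = 4) and 18.4 ± 7.42 CPM in control milk (SD, n = 5), with a log2 fold change of 0.14 ± 0.35 (SE) and a limma-voom adjusted p of 0.885.

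**Figure D5:**
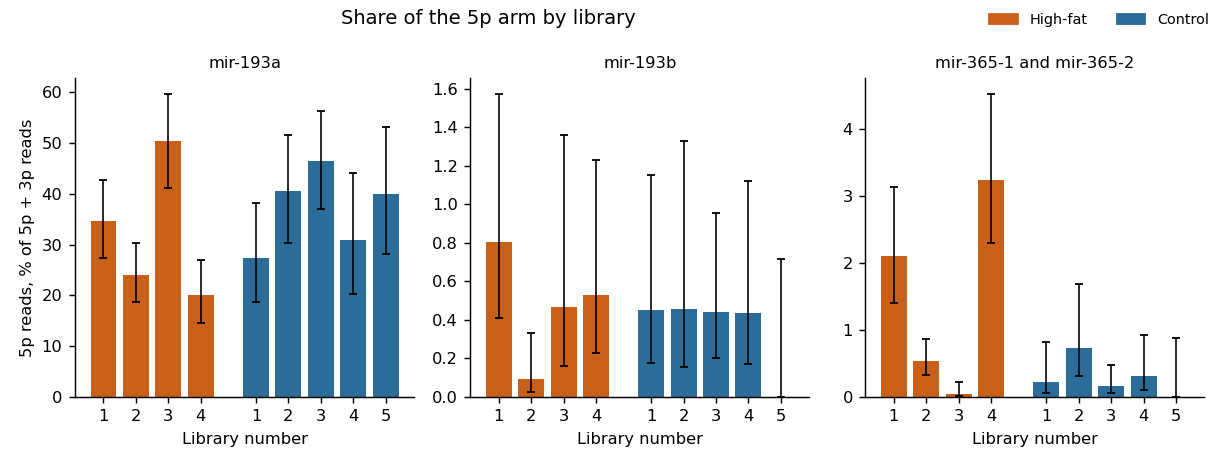
Reads of the 5p arm as a percentage of 5p and 3p reads of each hairpin in each library, with 95% Wilson intervals that cover counting error only; the scales differ between panels. mir-193a had 20.0% to 50.5% of its reads on the 5p arm and mir-193b at most 0.802% in the libraries where that arm was seen. For miR-365, high-fat libraries 1 and 4 were above all controls.

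The tested miRNAs most like each member over the 9 libraries were found by the Pearson r of log2 CPM, given as a description with no test. For miR-193a-3p they were miR-200a-3p (r = 0.83), an epithelial miRNA of the miR-200 family, miR-1843b-5p (0.77) and miR-342-3p (0.75), which is in the leukocyte list. Leaving out high-fat library 3 gave 0.90, 0.75 and 0.73. Each r pools the diets, so a difference in level between them enters it, and miR-200a-3p had a log2 fold change of 0.24 ± 0.11 (SE). In the order of r over all 9 libraries, miR-193b-3p ranked 90 and miR-365-3p 268. For miR-193b-3p the most alike names were miR-3473a (0.80), let-7c-2-3p (0.79) and let-7a-1-3p (0.79), with values of 0.69, 0.49 and 0.49 without high-fat library 3. The let-7 passenger strands had nearly equal counts and are not separate measurements. miR-365-3p was most like miR-486b-5p and miR-486a-5p (0.90 each), which also share counts, and miR-151-5p (0.86). Without high-fat library 3 these values were 0.71, 0.70 and 0.56. miR-486a-5p is in the erythrocyte list, but that library was also the highest in summed muscle miRNAs, so its cell of origin there cannot be told. miR-486a-5p measured 149 CPM in that library, and 50.4 ± 66.4 CPM over high-fat libraries (SD, n = 4) against 21.2 ± 14.7 CPM over controls (SD, n = 5).

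Other miRNAs tied to fat and to the mammary gland were set beside the members. Of 24 brown and beige fat miRNAs, the members included, 19 were tested and 0 passed limma-voom over all names. Fold changes were above 0 for 8 and below 0 for 11, against 50.6% above 0 over all tested names. Their median log2 fold change was -0.05, against 0.0042 over all tested names. miR-26a-5p, the most abundant, had a log2 fold change of 0.23 ± 0.18 (SE), and the inhibitors of adipocyte differentiation miR-27b-3p and miR-27a-3p had -0.05 ± 0.14 and -0.07 ± 0.12. Of the 19, 2 had an unadjusted limma-voom p under 0.05, against 10.3% of all tested names. These were miR-32-5p (0.91 ± 0.23) and miR-26b-5p (0.41 ± 0.15), named after their values were seen. The smallest limma-voom adjusted p in the list was 0.170. The miR-133 and miR-455 names and miR-196a-5p, also brown fat regulators, did not pass the count filter.

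In the white fat list 14 of 18 miRNAs were tested and 0 passed. It had 7 fold changes above 0 and 7 below, against 50.6% above 0 over all tested names, and a median of 0.00017. Its most abundant names were miR-148a-3p (0.11 ± 0.13), miR-21a-5p (-0.55 ± 0.17) and miR-143-3p (0.0051 ± 0.29). Of the 14, 2 had an unadjusted limma-voom p under 0.05, against 10.3% of all tested names. These were miR-21a-5p and miR-335-5p (2.51 ± 1.10, named after its value was seen), and the smallest limma-voom adjusted p was 0.277. The mammary gland list, which includes miR-193b-3p, had 14 of 18 miRNAs tested and 0 called. It had 8 fold changes above 0 and 6 below, against the same 50.6%, and a median of 0.08. There miR-146b-5p, miR-148a-3p and miR-200c-3p led in abundance, with log2 fold changes of -0.05 ± 0.10, 0.11 ± 0.13 and -0.26 ± 0.16. None of its 14 tested names had an unadjusted limma-voom p under 0.05, against 10.3% of all tested names. Its smallest limma-voom adjusted p was 0.621.

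Among lists of cell types, 0 of 7 tested leukocyte, 0 of 2 tested erythrocyte, 0 of 3 tested stromal and 0 of 8 tested epithelial miRNAs passed limma-voom, and no muscle miRNA was tested. At an unadjusted limma-voom p under 0.05 the counts were 0, 0, 0 and 2, against 10.3% of all tested names. The 2 epithelial names were miR-200a-3p (0.24 ± 0.11) and miR-141-3p (0.77 ± 0.21), of which miR-141-3p was named after its value was seen. All 7 leukocyte fold changes were above 0, against 50.6% of all tested names, with a median of 0.71. Their summed level was above every control in high-fat libraries 1 and 3 and below every control in high-fat libraries 2 and 4. The most abundant were miR-223-3p (0.48 ± 1.37), miR-142a-5p (1.26 ± 1.11) and miR-146a-5p (0.71 ± 0.35). miR-451a (0.31 ± 0.97) and miR-486a-5p (0.27 ± 0.82) were the tested red cell names. The stromal names were miR-143-3p, miR-145a-5p (-0.26 ± 0.21) and miR-199a-3p (0.40 ± 0.91), and the third most abundant epithelial name, after miR-146b-5p and miR-148a-3p, was miR-30a-5p (-0.09 ± 0.13).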

How the data were processed

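The authors deposited raw read counts of annotated miRNAs in a table with 1 row for each precursor and mature miRNA, and 833 cells had comma separators. These were removed, which left whole-number counts. The columns had been recorded under another unit because the separators fail a plain count check, and for that reason limma-voom was used in place of a count model. A count model was not fitted, although the values would allow one. The submitters' processing notes name cutadapt 1.9.1 and the GRCm38 build; aligner and counting rule were not given in the sources used here. Counts are reads, not molecules. Columns were matched to dams by sample name.

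The highest row per name and library was kept. Names were tested with 10 counts, scaled as 5.25 CPM, in 4 libraries and 15 counts in total; those left out held 0.0470% of counts. limma 3.58.1 in R 4.3.3 used voom weights, trimmed mean of M values scaling (30% and 5% trimmed) and diet as the only term, adjusted by Benjamini-Hochberg at 0.05. The code was also run on simulated counts. The changes set there were larger than those measured for the members, and no library was made to stand apart. That run is therefore no test of the fit for changes of the members' size. Ratios had 0.5 added to each count, as did CPM before logs. Exact permutation tests used scipy 1.17.1. Libraries of a diet differed well beyond counting noise (lowest chi-square per degree of freedom 50.2). Intervals and floors (3 counts) cover counting error only.

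The named miRNAs were the members, their 5p arms, the 3 most abundant and any called name of each list, and the 3 names most like each member. Members and lists were chosen with earlier results of these data known. Alternatives were other scalings, no filter, library weights, limma-trend, summed rows, a replicate block, another pseudocount and left-out libraries.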

Additional observations from a re-analysis of the deposited data

Results flagged for a closer look

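Each diet's values were searched for a library set well apart, by the gap to its nearest neighbour over the whole range. Of 36 groups of values 4 held such a library, where about 1 in 20, or 1.8, is due by chance. In high-fat library 3 the summed erythrocyte miRNAs (666 CPM), the summed striated muscle miRNAs (100.2 CPM) and miR-486a-5p (149 CPM), itself in the erythrocyte list, lay far above the other high-fat libraries. miR-486a-5p in control library 3 (47.1 CPM) lay far above the other controls. No level or ratio of the members passed the search, including the log2 ratio of miR-193b-3p to miR-365-3p in high-fat library 3, -1.96, which was the lowest of all.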

How the results depend on the processing

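Over 14 results, 145 of 156 alternative values kept the direction and side of the threshold, or the number called, and 11 did not. Among these results, the members' fold changes kept their side of the threshold under each fit tried. Counts of miR-193a-3p and of the 5p arms were at most 155 a library, which limits their precision. The number of miRNAs called was 0, and became 4 with no filter on low counts, 2 with a quality weight per library, 2 with limma-trend on log2 CPM and 3 with the replicate block, and 0 to 4 when any 1 library was left out, with 4 reached without control library 5. No called name was a member, and the cause was not tested. Leaving out any 1 library gave log2 fold changes of 0.29 to 0.68 for miR-193a-3p, -0.51 to -0.17 for miR-193b-3p and -0.039 to 0.50 for miR-365-3p, below 0 only without high-fat library 3. The diet difference in log2 ratio of miR-193a-3p to miR-365-3p ranged from -0.18 to 0.69, and that of miR-193b-3p to miR-365-3p from -0.78 to -0.13. The overall log2 ratio of miR-193b-3p to miR-365-3p ranged from -0.39 to -0.11 and passed without control library 5 (-0.39), and it passed with the rows of a name summed (-1.31), which by construction counts miR-365-3p reads once for each of its rows. The correlation of miR-193b-3p and miR-365-3p reversed to 0.52 without high-fat library 3.

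The replicate numbers are not stated to pair dams. Deviations of same-numbered libraries from their diet means correlated at 0.06, -0.08, 0.19 and -0.13, and those of unlike-numbered libraries at -0.18 to 0.30. Such weak values cannot show whether dams were paired. With the replicate block the log2 fold changes were 0.55, -0.26 and 0.25 for miR-193a-3p, miR-193b-3p and miR-365-3p, and the ratio differences were 0.82, 0.33 and -0.49, all on the same side of the threshold, although 4 pairs cannot give an exact p below 0.125.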
